A study of Mus musculus with 8 samples.

Results

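The cytochrome P450 genes of families 1 to 4 were taken from the deposited count table by name: every gene symbol made of Cyp, a family number between 1 and 4, 1 or 2 subfamily letters and a closing number. This rule gave 76 of 55421 genes in the table, and all 76 are protein-coding in GENCODE M21 on the GRCm38 build. It left out 38 related names, 32 of them ending in the pseudogene mark -ps, and also symbols with a letter after the number such as Cyp3a41a and Cyp4a12a. By family there were 3 Cyp1, 49 Cyp2, 7 Cyp3 and 17 Cyp4 genes. Chromosomes 4, 7 and 19 carried 15 of them each, chromosome 17 carried 9, and chromosomes 5 and 15 carried 8 each.

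P450 enzymes are heme proteins that insert an oxygen atom into a substrate. The microsomal members of these families take their electrons from the reductase Por, with cytochrome b5 as a helper. Families Cyp1 to Cyp3 oxidise drugs, dietary compounds, steroids and bile acids, several Cyp2 subfamilies also epoxidise arachidonic acid, and Cyp4 enzymes mainly hydroxylate fatty acids and eicosanoids at or near the end of the chain. In the small intestine the absorptive enterocytes carry most of the drug-metabolising P450 protein, where it acts on compounds during uptake. Transcription of many members is controlled by ligand-activated factors, among them Nr1i2 (PXR), Nr1i3 (CAR), Ahr, Ppara and Vdr, together with the epithelial factor Hnf4a.

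The study measured total RNA of mouse small intestine by bulk RNA sequencing. In the Hypoxia+Nitrate group, wild-type mice were exposed to 7% oxygen for 7 days and were given 4 mM nitrate. In the Hypoxia group, wild-type mice had the same exposure without nitrate, so both groups were hypoxic and no group at normal oxygen was analysed here. Each group had 4 samples. The labels do not say that these were 4 separate animals, so p-values below measure the spread between these samples. No source used here states age, sex or strain.

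The libraries differed in ways that touch every value below. Total counts were 63943036, 10704437, 8662279 and 52189300 in Hypoxia+Nitrate samples 1 to 4, against 19879554, 21835865, 5345377 and 9119048 in Hypoxia samples 1 to 4. A background was estimated in each library from 1428 odorant, vomeronasal and trace-amine receptor genes on the autosomes, taken to be largely silent outside sensory tissue. At that density per kilobase of exon, background made up 12.1% ± 10.8 of the nuclear protein-coding counts in Hypoxia+Nitrate (SD, n = 4, range 2.72% to 23.1%) and 50.8% ± 10.6 in Hypoxia (SD, n = 4, range 38.8% to 63.6%). The groups did not overlap in this share, so it cannot be told apart from the treatment. Hypoxia+Nitrate 1 and 4 stood apart within their group, with 63.98% and 49.3% of counts on mitochondrial protein-coding genes. This share was 7.31% and 6.90% in Hypoxia+Nitrate 2 and 3 and 0.423% to 1.06% in Hypoxia. Markers of absorptive enterocytes, the labelled tissue's main epithelial cell, were summed over 15 genes and stood at 5218, 82.3, 51.5 and 4732 times the background in Hypoxia+Nitrate 1 to 4. In Hypoxia 1 to 4 they stood at 5.48, 23.8, 2.08 and 1.77 times the background. By the test used below, 14 of the 15 were higher in Hypoxia+Nitrate, against 11.7% of all genes tested.

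A gene was said to stand above background in a library when it had at least 10 counts and its counts per kilobase exceeded the 99th percentile of the receptor genes in that library. By this rule 21, 7, 2 and 21 of the 76 genes stood above background in Hypoxia+Nitrate 1 to 4, against 3, 4, 4 and 3 in Hypoxia 1 to 4. Hypoxia+Nitrate 1 and 4 were high and Hypoxia+Nitrate 3 was low, but the threshold differed between libraries. It lay at 15.003, 9.93, 18.3 and 14.1 times the background in Hypoxia+Nitrate 1 to 4, against 3.70, 4.64, 4.23 and 3.87 times in Hypoxia 1 to 4, so these counts are not on one scale. Only Cyp2u1 and Cyp2f2 were above background in all 4 Hypoxia+Nitrate libraries, and 0 genes were in all 4 Hypoxia libraries. These counts moved with the rule: they were 12 and 2 with the 95th percentile, 6 and 3 when 3 of the 4 libraries sufficed, 6 in Hypoxia+Nitrate without its sample 3, and in Hypoxia 2 without sample 1 and 1 without sample 4. Over the 8 libraries, 23 genes were above background at least once and 53 never were.

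**Figure D1:**
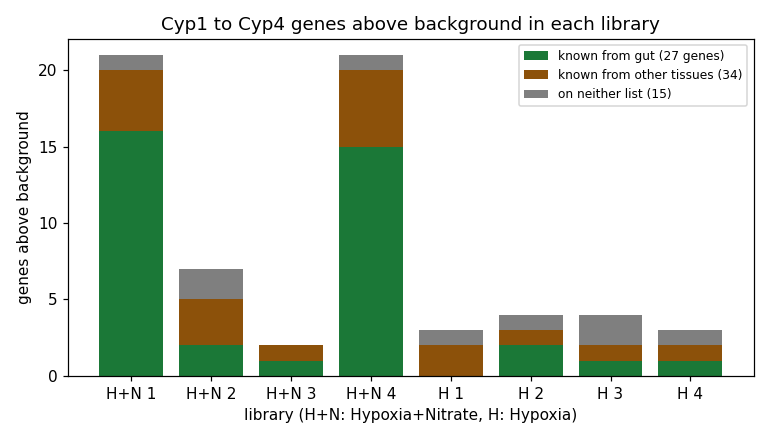
Number of the 76 Cyp1 to Cyp4 genes above background (vertical axis, genes) in each library, with Hypoxia+Nitrate samples (H+N) left of Hypoxia samples (H). Bars are split by a list of genes known from intestinal epithelium, a list known mainly from other tissues, and genes on neither list; Hypoxia+Nitrate 1 and 4 reach 21 genes each and no other library passes 7.

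Of the 23 genes, 16 were on a list of 27 known from intestinal epithelium, 5 on a list of 34 known mainly from other tissues, and 2 on neither. These lists were chosen with earlier results of these data known. In Hypoxia+Nitrate 1 and 4 the same 20 genes stood above background: Cyp2b10, Cyp2c65, Cyp2c68, Cyp2d22, Cyp2d26, Cyp2e1, Cyp2f2, Cyp2j6, Cyp2s1, Cyp2u1, Cyp3a11, Cyp3a13, Cyp3a25, Cyp4b1, Cyp4f13, Cyp4f14, Cyp4f16, Cyp4f17, Cyp4f18 and Cyp4v3. Cyp4f40 joined them in Hypoxia+Nitrate 1 alone, and Cyp4a14, a fatty acid hydroxylase known from liver as a Ppara target, joined them in Hypoxia+Nitrate 4 alone. The remaining gene, Cyp4a29, stood above background in Hypoxia+Nitrate 2 and in Hypoxia 2, 3 and 4. In Hypoxia the genes above background were Cyp2f2 in samples 1, 2 and 3, Cyp2u1 and Cyp4a29 in samples 2, 3 and 4, Cyp2e1 in samples 1 and 4, Cyp4f17 in samples 1 and 3, and Cyp3a13 in sample 2.

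**Figure D2:**
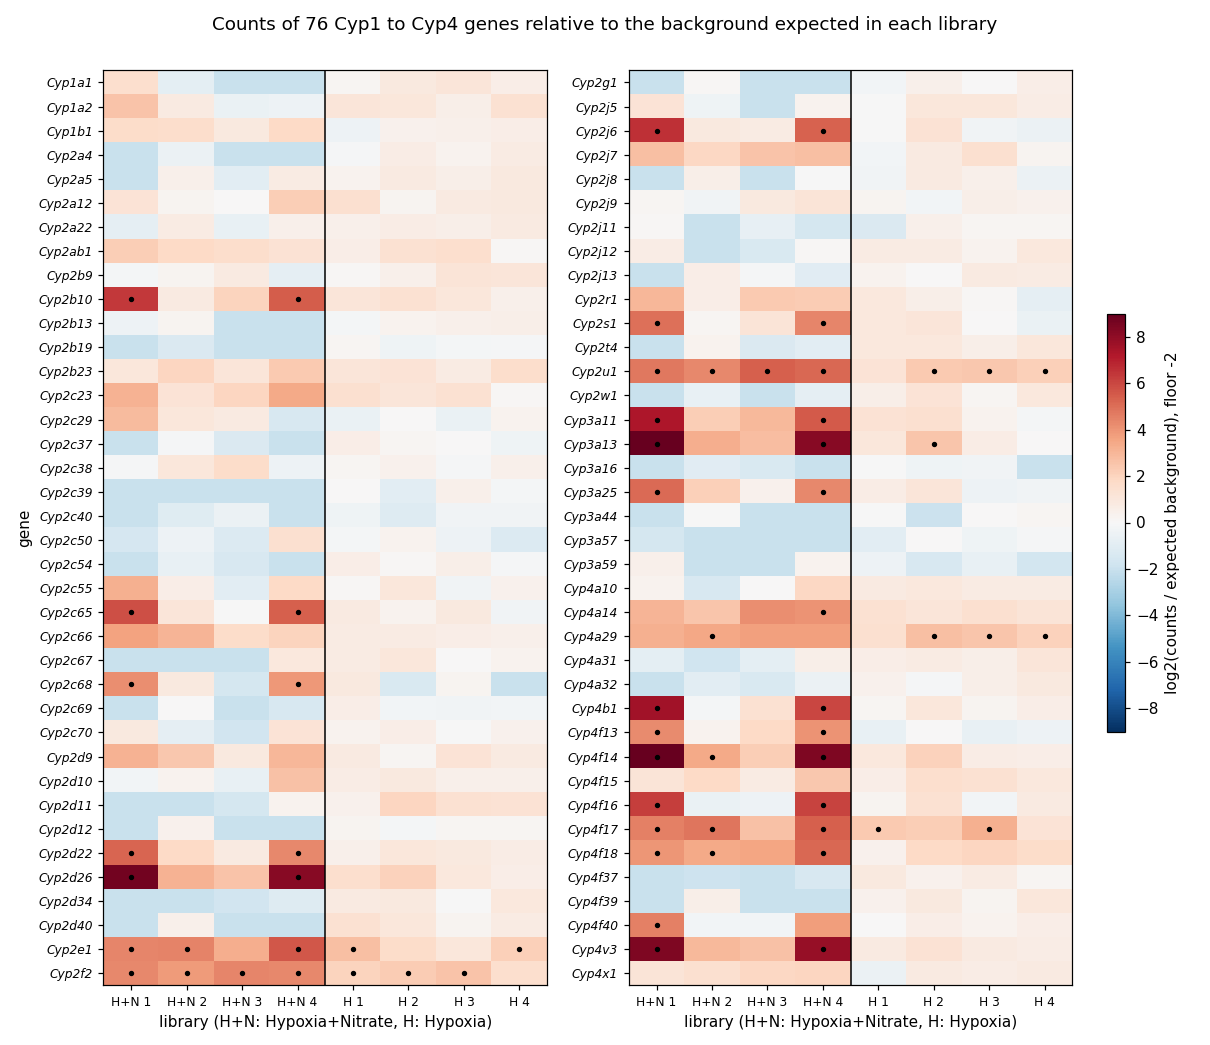
Counts of each of the 76 genes (rows) divided by the background expected for its exon length in that library (colour, log2, lower limit -2), with Hypoxia+Nitrate columns left of Hypoxia columns. A black dot marks a gene above background in that library; dark red cells gather in Hypoxia+Nitrate 1 and 4, and most Hypoxia cells lie near 0.

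Levels of different genes were compared as background-subtracted counts per kilobase, per 1000000 background-subtracted nuclear protein-coding counts, called the level here. In Hypoxia+Nitrate 1 the highest levels were those of Cyp3a13 at 199.9, Cyp4f14 at 165, Cyp2d26 at 129 and Cyp4v3 at 110. In Hypoxia+Nitrate 4 the same 4 genes led, with levels of 88.6 for Cyp3a13, 102 for Cyp4f14, 87.2 for Cyp2d26 and 69.5 for Cyp4v3. The order differed in the other libraries: Cyp4f17, Cyp2e1 and Cyp2u1 led in Hypoxia+Nitrate 2, Cyp2u1, Cyp2f2 and Cyp4a14 in Hypoxia+Nitrate 3, and Cyp2e1, Cyp4f17, Cyp4a29, Cyp2f2, Cyp2u1 or Cyp3a13 filled the first 3 places in Hypoxia. Summed over the 76 genes, the level was 640 ± 199 in Hypoxia+Nitrate and 676 ± 226 in Hypoxia (SD, n = 4 each), a difference smaller than the spread within either group. Levels below 0 were set to 0, and the 53 genes never above background supplied 24.0, 115, 71.8 and 20.1 of the sum in Hypoxia+Nitrate 1 to 4, against 405, 212, 316 and 253 in Hypoxia 1 to 4, so the sums do not hold detected genes alone. The genes known from gut held 95.05%, 46.6%, 60.1% and 87.7% of the 76 genes' counts in Hypoxia+Nitrate 1 to 4, against 40.0%, 48.1%, 37.7% and 39.8% in Hypoxia 1 to 4.

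Expression was compared between the groups with edgeR's quasi-likelihood test over all 35431 genes that passed its filter on low counts, and a gene was called at a Benjamini-Hochberg adjusted p under 0.05. Of the 76 genes 74 were tested, and Cyp2c39 and Cyp3a59 were not. The test called 15 of the 74 (20.3%), against 24.4% of all genes tested. Of these, 8 were higher in Hypoxia+Nitrate (10.8%, against 11.7% of all genes) and 7 were lower (9.46%, against 12.7%). The median log2 fold change of the 74 genes, Hypoxia+Nitrate over Hypoxia, was -1.05, against -0.58 over all genes tested. All of these shares were near or below those of all genes, so the P450 genes as a whole were not called more often than other genes. Without Hypoxia 1 the test called 0 higher and 0 lower, with 12 and 9 genes at an unadjusted p under 0.05, without Hypoxia 2 it called 4 higher and 3 lower, and without Hypoxia 3 or Hypoxia 4 it called 1 higher and 1 lower. Over all genes the shares were 1.95% and 3.61% without Hypoxia 1, and 7.06% and 8.46% without Hypoxia 2. They were 4.16% and 6.99% without Hypoxia 3, and 4.23% and 7.27% without Hypoxia 4. In place of 8 higher and 7 lower, RLE size factors gave 6 and 10, upper-quartile factors 5 and 9, and library size alone 0 and 1. Over all genes these scalings called 9.14% and 17.0%, 8.03% and 15.3%, and 0.686% and 4.39%. A fit of nuclear protein-coding genes alone, which also changed the filter and the genes adjusted over, gave 6 and 13. That was 8.0% and 17.3% of the 75 P450 genes it tested, against 15.1% and 14.4% of all genes in that fit. DESeq2 gave 9 higher and 25 lower (13.1% and 28.3% of all genes), and limma-voom with quality weights 14 and 32 (15.8% and 42.6% of all genes), close to the share of all genes.

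All 8 genes that rose in Hypoxia+Nitrate belong to the list of 27 known from gut. The lists were chosen with earlier results of these data known, so this split describes the data and is no independent evidence. Of the gut list 8 rose, 1 fell and 18 were not called, with a median log2 fold change of 1.20. Over all genes tested 11.7% rose and 12.7% fell, with a median of -0.58. Of the 32 tested genes known mainly from other tissues 0 rose, 2 fell and 30 were not called, with a median of -1.85. Of the 15 genes on neither list 0 rose, 4 fell and 11 were not called, with a median of -1.74. At an unadjusted p under 0.05 edgeR had 1 gene of the other-tissue list and 0 of the genes on neither list higher, and DESeq2 and limma-voom with quality weights called 0 of either set higher. The restriction to the gut list did not hold without Hypoxia+Nitrate 1 and 4, where edgeR called 5 genes higher (10.1% of all genes). Of these 3 are on the other-tissue list: Cyp4f18 (log2 fold change 1.43, adjusted p = 0.0317), Cyp2f2 (1.47, adjusted p = 0.0220) and Cyp4a14 (1.74, adjusted p = 0.0243). Cyp4f18 was also called without Hypoxia+Nitrate 1 alone (edgeR adjusted p = 0.0458). By family, 2 of 6 tested Cyp3 genes rose and 1 fell, 4 of 17 Cyp4 genes rose and 2 fell, 2 of 48 tested Cyp2 genes rose and 4 fell, and edgeR called 0 of 3 Cyp1 genes (0 unadjusted), where DESeq2 called 2 and limma-voom 1 lower.

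**Figure D3:**
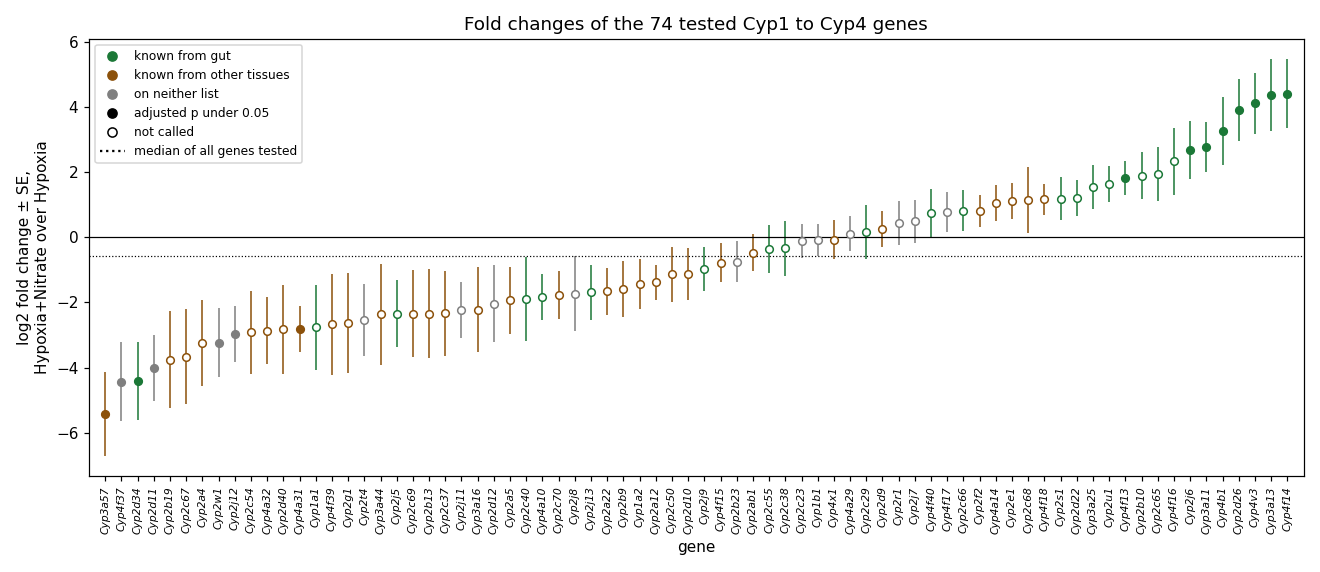
Log2 fold change of the 74 tested genes, Hypoxia+Nitrate over Hypoxia (vertical axis), with its standard error as a bar, in order of fold change. Filled points passed the adjusted p threshold of 0.05 and colours give the lists, which were chosen with earlier results of these data known. All 8 filled points above 0 are on the gut list, and the dotted line marks the median of all genes tested at -0.58.

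The Cyp3a enzymes oxidise a wide range of drugs, steroids and bile acids. Cyp3a13 (ENSMUSG00000029727, GRCm38 chr5:137892932-137921619, minus strand) had 388, 19.96, 13.1 and 198 CPM (counts per 1000000 of the TMM-scaled library size) in Hypoxia+Nitrate 1 to 4. In Hypoxia 1 to 4 it had 7.34, 14.5, 5.01 and 3.07 CPM. Hypoxia+Nitrate 1 and 4 were far above the rest, and Hypoxia+Nitrate 3 lay below Hypoxia 2. Its log2 fold change was 4.37 (SE 1.10, edgeR adjusted p = 0.0184). Against background the counts were 621, 9.43, 6.80 and 291 times the expected value in Hypoxia+Nitrate and 2.06, 5.64, 1.56 and 1.013 times in Hypoxia.

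Cyp3a11, the mouse enzyme most often set beside human CYP3A4 and a well-known PXR target, had 166, 17.1, 24.9 and 53.2 CPM in Hypoxia+Nitrate 1 to 4, against 15.2, 11.9, 6.80 and 4.58 CPM in Hypoxia 1 to 4. In CPM the groups did not overlap, although Hypoxia+Nitrate 2 was close to Hypoxia 1. On the level scale they overlapped. Levels were 49.5, 12.1, 17.6 and 13.6 in Hypoxia+Nitrate 1 to 4, against 27.9, 11.8, 2.95 and 0 in Hypoxia 1 to 4. Its log2 fold change was 2.77 (SE 0.760, edgeR adjusted p = 0.0251). Its counts were 4.69 and 7.54 times the background in Hypoxia+Nitrate 2 and 3, and 2.46, 2.70, 1.23 and 0.876 times in Hypoxia 1 to 4. It stood above background in neither of these Hypoxia+Nitrate libraries and in 0 of 4 Hypoxia libraries. Cyp3a25, also known from gut, was not called by edgeR with all 8 libraries: its log2 fold change was 1.55 (SE 0.673, edgeR adjusted p = 0.110). It was called higher by limma-voom with quality weights, at 1.90 (limma-voom adjusted p = 0.0214). Without Hypoxia+Nitrate 3 edgeR called it too, at 2.04 (edgeR adjusted p = 0.0195). Cyp3a25 stood above background in Hypoxia+Nitrate 1 and 4 alone. Cyp3a25 shares 26.8% of its 50-base windows with other genes, mostly Cyp3a59, so its counts are uncertain, whereas Cyp3a13 shares 0% and Cyp3a11 6.73%.

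Among the Cyp2 genes, Cyp2d26 and Cyp2j6 rose. Cyp2d26 belongs to the mouse subfamily that corresponds to human CYP2D6. It had 152, 11.5, 7.02 and 118 CPM in Hypoxia+Nitrate 1 to 4, against 6.27, 6.47, 3.79 and 2.83 CPM in Hypoxia 1 to 4, with no overlap. The log2 fold change was 3.90 (SE 0.960, edgeR adjusted p = 0.0168). Hypoxia+Nitrate 1 and 4 again carried the difference, and in CPM Hypoxia+Nitrate 3 was just above the highest Hypoxia sample. On the level scale the groups overlapped. Levels were 129, 26.0, 13.5 and 87.2 in Hypoxia+Nitrate 1 to 4, against 36.2, 21.9, 12.2 and 5.14 in Hypoxia 1 to 4.

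Cyp2j6 is of the subfamily that makes epoxides of arachidonic and linoleic acid. It had 72.9, 4.83, 3.97 and 33.0 CPM in Hypoxia+Nitrate 1 to 4, against 4.34, 7.86, 3.16 and 2.53 CPM in Hypoxia 1 to 4. Hypoxia 2 exceeded Hypoxia+Nitrate 2 and 3, so the groups overlapped. This gave a log2 fold change of 2.68 (SE 0.885, edgeR adjusted p = 0.0480), close to the threshold.

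Of the fatty acid hydroxylases of family 4, Cyp4v3, Cyp4f14, Cyp4b1 and Cyp4f13 rose. Cyp4v3 is the mouse counterpart of human CYP4V2, the gene mutated in Bietti crystalline dystrophy of the retina. It had 252, 18.6, 13.9 and 184 CPM in Hypoxia+Nitrate 1 to 4, against 7.34, 7.49, 6.53 and 5.60 CPM in Hypoxia 1 to 4. In CPM all 4 Hypoxia+Nitrate samples lay above all 4 Hypoxia samples, which spanned a narrow range. On the level scale the groups overlapped. Levels were 110, 21.1, 13.8 and 69.5 in Hypoxia+Nitrate 1 to 4, against 14.1, 10.2, 9.30 and 5.35 in Hypoxia 1 to 4. For Cyp4v3 the log2 fold change was 4.12 (SE 0.934, edgeR adjusted p = 0.0127), the lowest adjusted p of the 74 tested genes.

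Cyp4f14, which in mouse hydroxylates leukotriene B4, had 263, 18.3, 7.24 and 186 CPM in Hypoxia+Nitrate 1 to 4, against 5.74, 8.95, 4.16 and 3.67 CPM in Hypoxia 1 to 4. Hypoxia+Nitrate 3 fell between Hypoxia 1 and Hypoxia 2, and the other Hypoxia+Nitrate samples were higher than all Hypoxia samples. Its log2 fold change was 4.40 (SE 1.06, edgeR adjusted p = 0.0157), the highest of the 74. Cyp4b1, known for activating the lung toxin ipomeanol, had 91.6, 1.42, 3.76 and 33.3 CPM in Hypoxia+Nitrate 1 to 4, against 3.07, 4.00, 2.90 and 3.55 CPM in Hypoxia 1 to 4. Hypoxia+Nitrate 2 was the lowest of the 8 samples for Cyp4b1, while Hypoxia+Nitrate 1 and 4 were the highest (log2 fold change 3.26, SE 1.05, edgeR adjusted p = 0.0435).

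Cyp4f13 lies beside Cyp4f14 on chromosome 17 and showed a smaller difference. It had 17.8, 3.92, 10.01 and 16.7 CPM in Hypoxia+Nitrate 1 to 4, against 3.40, 3.86, 3.004 and 3.37 CPM in Hypoxia 1 to 4. Every Hypoxia+Nitrate sample was above every Hypoxia sample, Hypoxia+Nitrate 2 by a small margin. The log2 fold change was 1.83 (SE 0.516, edgeR adjusted p = 0.0277). In Hypoxia its counts were 0.623 to 1.00 times the background.

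**Figure D4:**
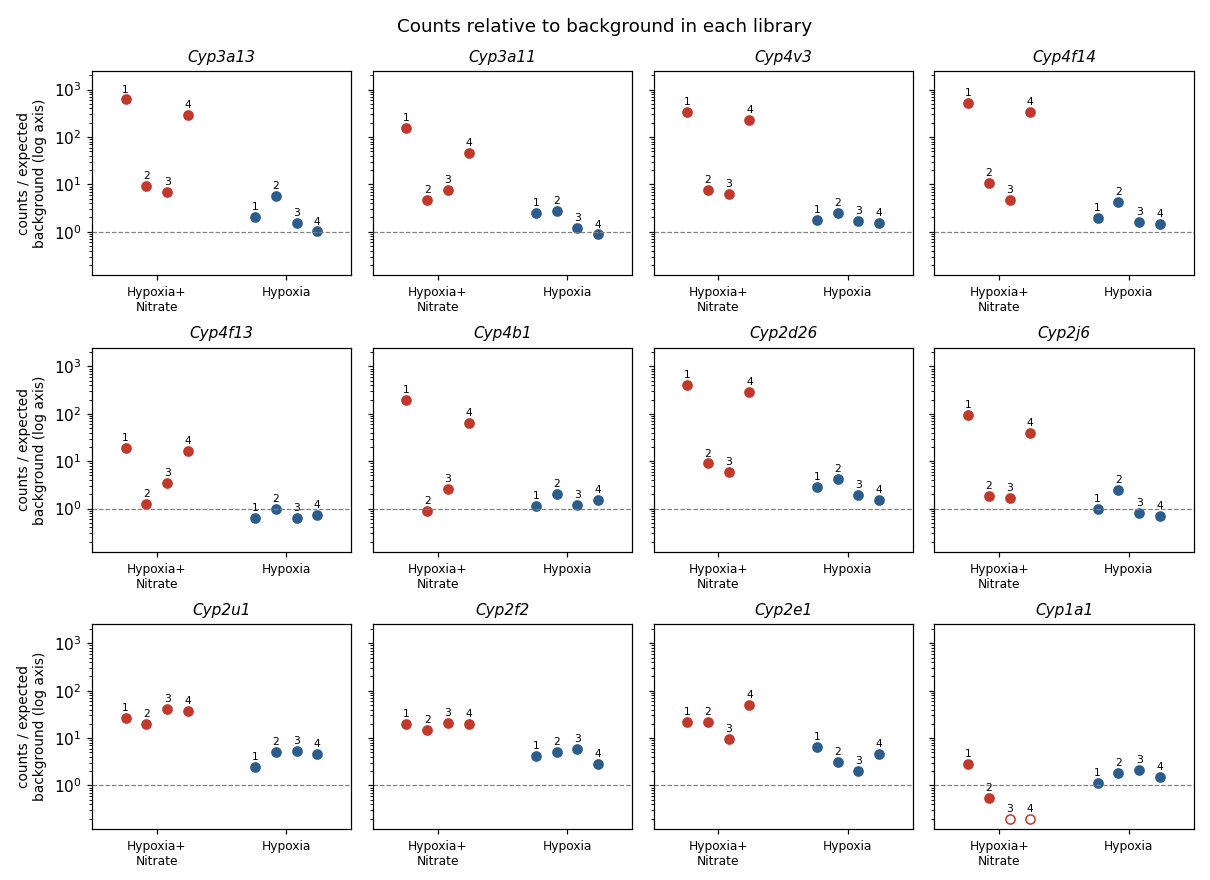
Counts divided by expected background (vertical axis, log scale) for the 8 genes that rose, for Cyp2u1, Cyp2f2, Cyp2e1 and for Cyp1a1, with Hypoxia+Nitrate (red) left of Hypoxia (blue). Each point is 1 sample with its number, open points are counts of 0 drawn at the lower edge, and the dashed line is a count equal to background; for the 8 genes that rose, Hypoxia+Nitrate 1 and 4 lie far above 2 and 3.

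Samples 1 and 4 set the size of these differences. For the 8 genes together, the median ratio of counts to background was 266 and 146 in Hypoxia+Nitrate 1 and 4, 6.07 and 5.32 in Hypoxia+Nitrate 2 and 3, and 1.85, 2.61, 1.39 and 1.25 in Hypoxia 1 to 4. When Hypoxia+Nitrate 1 and 4 were left out, 1 of the 8 was still called, Cyp4v3, with a log2 fold change of 1.35 (edgeR adjusted p = 0.0185). Without them, Cyp4b1 had a log2 fold change of -0.27 (edgeR adjusted p = 0.750). On the level scale, Cyp3a13 was at 27.6 and 15.6 in Hypoxia+Nitrate 2 and 3, against 20.2 and 32.1 in Hypoxia 1 and 2 and 7.21 and 0.127 in Hypoxia 3 and 4. After background subtraction and a limma-voom fit, 0 of 52 tested P450 genes were higher, with 1 at an unadjusted p under 0.05, against 4.16% of all genes called higher in that fit. Of the 8 genes, 7 were tested there and kept a positive log2 fold change. With the background share of each library as a covariate, edgeR called 0 of the 74 genes and 0% of all genes. At an unadjusted p under 0.05 it had 4 of the 74 higher and 1 lower. In that fit 2 of the 8 kept a positive log2 fold change, Cyp3a11 and Cyp4f13. The other 6 turned negative, at -0.89 for Cyp3a13, -0.73 for Cyp4f14, -0.40 for Cyp2d26, -0.39 for Cyp4v3, -3.09 for Cyp4b1 and -1.99 for Cyp2j6. Enterocyte markers and the background share moved with the same samples. The covariate fit cannot separate the background share from the treatment, and the part of enterocyte markers was not tested. In bulk tissue, fewer enterocytes and less RNA per enterocyte cannot be told apart.

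Promoter sequence is shown for the 3 of the 8 genes whose window held any of the motifs searched. RefSeq windows on GRCm38.p6, from 250 bases before to 50 after the annotated start, were found for 63 of the 76 genes and for all 8 that rose. Both strands were searched for 6 motifs: TATAAA as a start-site box, AGGTCA as a nuclear receptor half-site, GTTAAT as an HNF1 half-site, CAAAGTCCA as an HNF4 site, AGATAA as a site of GATA factors, and GCGTG as the core of the xenobiotic response element that Ahr and Arnt bind. None of these motifs contains another. Capitals mark every match. In Cyp3a11 (chr5:145879805-145880104, minus strand) TATAAA began 234 bases before the start, AGGTCA 162 and CAAAGTCCA 109. In Cyp2d26 (chr15:82794196-82794495, minus strand) GTTAAT lay 90 and TATAAA 31 bases before the start, both on the opposite strand and so printed as ATTAAC and TTTATA. In Cyp4v3 (chr8:45333114-45333413, minus strand) GCGTG began 16 bases before the start.
Cyp3a11: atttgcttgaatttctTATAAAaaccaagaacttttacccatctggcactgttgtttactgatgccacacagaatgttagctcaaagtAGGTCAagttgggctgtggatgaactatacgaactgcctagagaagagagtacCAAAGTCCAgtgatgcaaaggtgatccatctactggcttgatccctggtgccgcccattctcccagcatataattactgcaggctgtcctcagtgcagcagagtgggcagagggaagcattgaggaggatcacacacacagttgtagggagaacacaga
Cyp2d26: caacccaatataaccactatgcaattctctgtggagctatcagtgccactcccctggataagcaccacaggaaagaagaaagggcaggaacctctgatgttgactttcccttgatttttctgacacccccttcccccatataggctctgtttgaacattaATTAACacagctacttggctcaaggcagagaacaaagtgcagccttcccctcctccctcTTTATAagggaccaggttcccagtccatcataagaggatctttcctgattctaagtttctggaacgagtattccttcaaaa
Cyp4v3: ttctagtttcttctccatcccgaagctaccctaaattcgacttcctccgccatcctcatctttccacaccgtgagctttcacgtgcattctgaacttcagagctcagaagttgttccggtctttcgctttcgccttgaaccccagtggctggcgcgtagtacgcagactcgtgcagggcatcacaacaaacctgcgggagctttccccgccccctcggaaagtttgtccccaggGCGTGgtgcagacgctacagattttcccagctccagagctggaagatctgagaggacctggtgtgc
The windows of the other 5 genes that rose held 0 of the 6 motifs. The HNF4 letters were in 8 of the 63 P450 windows (12.7%), against 0.475% of 32851 windows in the RefSeq table. These 8 were Cyp2c40, Cyp2c65, Cyp2c67, Cyp2c68, Cyp2c69, Cyp2c70, Cyp3a11 and Cyp3a16, of which 6 are Cyp2c genes with related sequences, and of which only Cyp3a11 rose. TATAAA was in 42.9% of the P450 windows against 13.6% of all windows, and GCGTG in 20.6% against 32.4%. A match is a run of letters and shows neither binding nor a cause.

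The genes that stood above background most evenly were not called by edgeR with all 8 libraries and its filter. Cyp2u1 (ENSMUSG00000027983, GRCm38 chr3:131288441-131303227), which hydroxylates long-chain fatty acids and is mutated in a human hereditary spastic paraplegia, had 26.9, 65.8, 126 and 39.7 CPM in Hypoxia+Nitrate 1 to 4. In Hypoxia 1 to 4 it had 13.6, 20.5, 27.7 and 21.7 CPM. Hypoxia+Nitrate 2 and 3 were the highest here, and Hypoxia+Nitrate 1 lay below Hypoxia 3. On the level scale Hypoxia+Nitrate 1 and 4, at 8.40 and 10.9, lay below every Hypoxia sample, at 26.7 to 57.1. Hypoxia+Nitrate 2 and 3, at 60.8 and 108, lay above every Hypoxia sample. The log2 fold change was 1.63 (SE 0.547), and edgeR's adjusted p of 0.0510 just missed the threshold. It was called higher by DESeq2, at 1.35 (DESeq2 adjusted p = 0.0233), and by edgeR with no filter on low counts (adjusted p = 0.0342). Without Hypoxia+Nitrate 1 and 4 it was called, at 2.31 (edgeR adjusted p = 0.0137). Cyp2u1 shares 12.3% of its 50-base windows with other genes, mostly the overlapping gene 4930534D22Rik, and no source used here states whether reads were counted by strand.

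Cyp2f2, known from club cells of the mouse lung where it activates naphthalene, had 7.25, 18.3, 23.8 and 8.10 CPM in Hypoxia+Nitrate 1 to 4, against 8.68, 7.57, 11.2 and 5.06 CPM in Hypoxia 1 to 4. The groups overlapped, and its log2 fold change of 0.82 (SE 0.491, edgeR adjusted p = 0.224) did not pass. Its counts were 14.6 to 20.96 times the background in Hypoxia+Nitrate and 2.82 to 5.90 times in Hypoxia. On the level scale Hypoxia+Nitrate 1 and 4, at 5.99 and 5.83, lay below the Hypoxia range of 17.3 to 63.2. Hypoxia+Nitrate 2 and 3, at 44.4 and 53.7, lay within that range. Without Hypoxia+Nitrate 1 and 4 Cyp2f2 was called, at a log2 fold change of 1.47 (edgeR adjusted p = 0.0220).

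Cyp2e1, the ethanol-oxidising enzyme best known from liver, had 9.80, 34.2, 13.4 and 24.3 CPM in Hypoxia+Nitrate 1 to 4, against 17.2, 5.75, 4.74 and 9.997 CPM in Hypoxia 1 to 4. Hypoxia 1 exceeded Hypoxia+Nitrate 1 and 3. The log2 fold change was 1.12 (SE 0.549, edgeR adjusted p = 0.147). The hepatocyte marker Alb had 70.2, 90.9, 119 and 171 CPM in Hypoxia+Nitrate and 121, 37.6, 31.0 and 35.7 CPM in Hypoxia, with its highest Hypoxia value in the same sample 1. Of 12 hepatocyte markers edgeR called 0, with 3 higher at an unadjusted p under 0.05, DESeq2 called 0 and limma-voom 1 higher, and their sum was 10.2 to 58.4 times the background in Hypoxia+Nitrate and 3.06 to 7.66 times in Hypoxia. Whether liver RNA had a part in the Cyp2e1 counts was not tested.

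Cyp4f17 and Cyp4a29, for which no role is given here, were also above background in both groups. Cyp4f17 stood at 22.8, 28.5, 6.08 and 42.2 times the background in Hypoxia+Nitrate 1 to 4, against 5.12, 4.59, 9.27 and 2.35 times in Hypoxia 1 to 4 (log2 fold change 0.78, SE 0.620, edgeR adjusted p = 0.350). Cyp4a29 stood at 8.998, 11.1, 12.7 and 12.6 times in Hypoxia+Nitrate 1 to 4, against 2.67, 6.52, 5.74 and 4.22 times in Hypoxia 1 to 4 (log2 fold change 0.11, SE 0.541, edgeR adjusted p = 0.893). On this ratio Cyp4a29 did not overlap between the groups, whereas its scaled counts differed by less than their error. The ratio divides by a background that was itself lower in Hypoxia+Nitrate 1 and 4, at 2.98 and 4.72 counts per kilobase, than in Hypoxia, at 11.9 to 20.6.

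Other enzymes known from gut were above background in Hypoxia+Nitrate 1 and 4 without passing edgeR's test. Of those given here limma-voom with quality weights called Cyp2b10 (adjusted p = 0.00879), Cyp4f16 (adjusted p = 0.0339) and Cyp2s1 (adjusted p = 0.0452) higher. Cyp2b10, a CAR target, stood at 82.2 and 44.3 times the background in Hypoxia+Nitrate 1 and 4, at 1.77 and 3.93 times in Hypoxia+Nitrate 2 and 3, and at 1.39 to 2.62 times in Hypoxia (log2 fold change 1.88, SE 0.724, edgeR adjusted p = 0.0782). Cyp4f16 stood at 73.4 and 68.0 times in Hypoxia+Nitrate 1 and 4, at 0.673 and 0.737 times in Hypoxia+Nitrate 2 and 3, and at 0.854 to 2.54 times in Hypoxia (log2 fold change 2.34, SE 1.03, edgeR adjusted p = 0.113). Cyp2s1, an enzyme of surface epithelia, stood at 30.9 and 20.6 times in Hypoxia+Nitrate 1 and 4, at 1.15 and 2.24 times in Hypoxia+Nitrate 2 and 3, and at 0.665 to 2.17 times in Hypoxia (log2 fold change 1.18, SE 0.666, edgeR adjusted p = 0.199). On this ratio Hypoxia+Nitrate 2 and 3 lay below the Hypoxia range for Cyp4f16, and of these samples only Hypoxia+Nitrate 3 exceeded it for Cyp2b10 and Cyp2s1. In CPM, Hypoxia+Nitrate 3 lay within the Hypoxia range for both. Cyp2b10 was at 5.39 CPM against 3.01 to 5.54 in Hypoxia, and Cyp2s1 at 6.80 CPM against 3.19 to 10.9.

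The family 1 genes, which Ahr induces, were not called by edgeR. Cyp1a1 had 24, 19, 0 and 0 counts in Hypoxia+Nitrate 1 to 4, against 56, 62, 121 and 71 counts in Hypoxia 1 to 4. These were 0 to 2.89 times the background in Hypoxia+Nitrate and 1.11 to 2.11 times in Hypoxia, so Cyp1a1 stood above background in 0 libraries. A count of 0 allows up to 3 counts, and this floor covers counting error only. Its log2 fold change was -2.77 (SE 1.30, edgeR adjusted p = 0.133). Cyp1b1 had 56, 215, 126 and 95 counts in Hypoxia+Nitrate and 76, 90, 165 and 149 in Hypoxia, with a log2 fold change of -0.08 (SE 0.480, edgeR adjusted p = 0.909). Cyp2r1, a vitamin D 25-hydroxylase, likewise stood above background in 0 libraries (log2 fold change 0.43, SE 0.671, edgeR adjusted p = 0.639).

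The 7 genes that fell in Hypoxia+Nitrate were Cyp3a57, Cyp4f37, Cyp2d34, Cyp2d11, Cyp2w1, Cyp2j12 and Cyp4a31, and 0 of them stood above background in any library. Their counts were 0 to 17 in Hypoxia+Nitrate samples and 19 to 101 in Hypoxia samples. Against background they were at 0 to 1.55 times in Hypoxia+Nitrate and 0.527 to 3.84 times in Hypoxia. Cyp3a57 had 2, 0, 0 and 0 counts in Hypoxia+Nitrate 1 to 4, against 19, 24, 32 and 32 counts in Hypoxia 1 to 4. Over the group sums of 2 and 107 counts, scaled by library, the ratio was 0.0170 (95% exact interval 0.00204 to 0.0631, counting error only), with edgeR adjusted p = 0.0148. In Hypoxia, Cyp3a57 was at 0.527 to 1.009 times the background, the value expected of a silent gene.

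The other 6 that fell had log2 fold changes of -4.43 for Cyp4f37, -4.41 for Cyp2d34, -4.004 for Cyp2d11, -3.23 for Cyp2w1, -2.96 for Cyp2j12 and -2.80 for Cyp4a31. Their edgeR adjusted p-values ran between 0.0179 for Cyp2d11 and 0.0459 for Cyp2w1. Cyp2w1 is known in human from fetal gut and colorectal tumours. Cyp2d11 reached 3.84 times the background in Hypoxia 2, the highest of the 7, and shares 37.2% of its 50-base windows with other genes, mostly Cyp2d10. After background subtraction, limma-voom called 7 of 52 tested P450 genes lower (13.5%, against 9.23% of all genes). Of these, 4 were among the 7 genes that fell: Cyp2d11, Cyp4f37, Cyp4a31 and Cyp2j12. Cyp3a57, Cyp2d34 and Cyp2w1 were not tested in that fit. DESeq2 called 25 lower, against 28.3% of all genes. With the background share as a covariate, edgeR called 0 of the 7, and all 7 kept a negative log2 fold change. The background share was lower in every Hypoxia+Nitrate sample, so its part in the change of these genes cannot be told apart from the treatment.

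The scaled counts of the groups did not overlap in 31 of the 74 tested genes, against 40.8% of all genes. In 4 of these, Cyp2d26, Cyp3a11, Cyp4f13 and Cyp4v3, all Hypoxia+Nitrate samples were higher (background 12% of all genes). In 27 they were lower (background 28.8% of all genes). On the level scale Cyp2d26, Cyp3a11 and Cyp4v3 overlapped between the groups. The 27 included Cyp1a1, Cyp1a2, Cyp2a4, Cyp2a5 and Cyp2b9, and Hypoxia+Nitrate 1 to 4 had 22, 3, 12 and 14 of the 76 genes at a count of 0, against 0 in every Hypoxia library. The 53 genes never above background had a median of 0.695 times the background over the Hypoxia+Nitrate samples and 1.37 times over the Hypoxia samples.

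Genes that serve the P450 enzymes were described as lists. Of 19 electron donors, genes of heme supply and turnover, and epoxide hydrolases (Ephx1 and Ephx2), 11 rose and 0 fell in Hypoxia+Nitrate, with a median log2 fold change of 1.86 (edgeR). Over all genes tested 11.7% rose and 12.7% fell, with a median of -0.58. For the falls, edgeR had 0 at an unadjusted p under 0.05, and DESeq2 and limma-voom called 0. Por, the reductase that feeds the microsomal P450s, had 158, 21.9, 14.7 and 83.6 CPM in Hypoxia+Nitrate 1 to 4, against 7.88, 9.67, 7.96 and 10.1 CPM in Hypoxia 1 to 4. In CPM the groups did not overlap, and the log2 fold change was 2.97 (SE 0.729, edgeR adjusted p = 0.0167). On the level scale they overlapped, with Hypoxia+Nitrate 3 at 12.4 and Hypoxia 4 at 13.7. Cyb5a, the cytochrome b5 helper, had a log2 fold change of 3.54 (SE 0.850, edgeR adjusted p = 0.0154), and the 3 lowest p-values of the list were those of Hmox2, Pgrmc1 and Cyb5r3, with log2 fold changes of 3.58, 3.94 and 4.90.

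Of 24 transcription factors and partners that act on P450 genes, 12 rose and 0 fell, with a median log2 fold change of 1.54 (edgeR). The shares over all genes tested were 11.7% and 12.7%, with a median of -0.58. Ahrr, the Ahr repressor, was the 1 gene lower at an unadjusted p under 0.05, and DESeq2 and limma-voom each called 1 lower. Hnf4a had 551, 83.9, 72.7 and 532 CPM in Hypoxia+Nitrate 1 to 4, against 19.3, 37.1, 9.80 and 14.3 CPM in Hypoxia 1 to 4, with no overlap (log2 fold change 3.94, SE 0.884, edgeR adjusted p = 0.0122). Nr1i2, the PXR gene, had 75.2, 7.33, 3.54 and 109 CPM in Hypoxia+Nitrate 1 to 4, against 5.34, 9.89, 6.06 and 5.300 CPM in Hypoxia 1 to 4, with overlap (log2 fold change 2.87, SE 0.939, edgeR adjusted p = 0.0465). Arnt rose by 1.61 (SE 0.386, edgeR adjusted p = 0.0156) and Vdr by 3.42 (SE 0.861, edgeR adjusted p = 0.0182) on the log2 scale. Ahr, at 0.94 (edgeR adjusted p = 0.0738), and Ppara, at 0.86 (edgeR adjusted p = 0.138), did not pass.

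Of 20 tested P450 genes of families above 4, 1 rose and 4 fell, with a median of -1.47. The shares over all genes tested were 11.7% and 12.7%, with a median of -0.58. The gene that rose was Cyp27a1, the sterol 27-hydroxylase of bile acid synthesis, at a log2 fold change of 2.19 (edgeR adjusted p = 0.0400). The 4 that fell were Cyp11b2, Cyp11b1, Cyp11a1 and Cyp21a1, known as steroid synthesis enzymes. They stood near the background in Hypoxia, at 0.987 to 1.77 times for Cyp11b2, 1.15 to 1.77 times for Cyp11b1, 0.531 to 1.93 times for Cyp11a1 and 1.095 to 2.71 times for Cyp21a1. They had at most 1.88 CPM in any Hypoxia+Nitrate sample and at most 9.21 CPM in any Hypoxia sample. Cyp27a1 and Cyp21a1 were singled out after their values were seen.

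**Figure D5:**
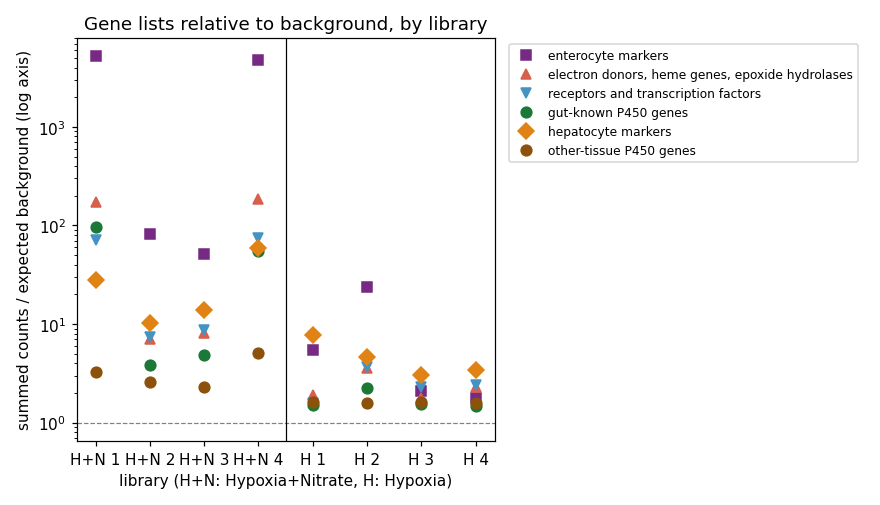
Summed counts of each gene list divided by its expected background (vertical axis, log scale) in each library, with Hypoxia+Nitrate samples (H+N) left of Hypoxia samples (H). The gut-known P450 genes (green) stand at 96.3, 3.86, 4.88 and 54.7 times the background in Hypoxia+Nitrate and at 1.46 to 2.26 times in Hypoxia, and the enterocyte markers (purple squares) are high in the same libraries.

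The lists of electron donors, heme genes and epoxide hydrolases, of regulators and of enterocyte markers were high in the same libraries as the gut-known P450 genes. The first of these lists stood at 174, 6.99, 8.19 and 187 times the background in Hypoxia+Nitrate 1 to 4, against 1.79 to 3.61 times in Hypoxia. Fabp2, an enterocyte fatty acid carrier, had 10014, 553, 262 and 16962 CPM in Hypoxia+Nitrate 1 to 4, against 61.2, 159, 2.53 and 7.23 CPM in Hypoxia 1 to 4, which in Hypoxia 3 and 4 was 2.41 and 7.30 times the background. Some markers of other cell types were called as well: 7 of 8 smooth muscle, 2 of 8 fibroblast and 1 of 8 macrophage markers rose, and 1 of 7 tested pancreatic acinar markers fell. Over all genes tested 11.7% rose and 12.7% fell. The pancreatic markers Cela2a and Amy2a5 were at 0 counts in every Hypoxia+Nitrate library.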

How the data were processed

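Small intestine RNA of 4 Hypoxia+Nitrate and 4 Hypoxia samples was sequenced; groups and replicate numbers came from the sample titles. RNA was taken with TRIzol from tissue in RNAlater, per the labels' protocols (a text that names islets at this step), and libraries were made with a stranded KAPA kit. HISAT, featureCounts 1.5.0-p3 and DESeq 1.8.3 on GRCm38 are named in the submitters' processing notes, and no source used here states the annotation or strand setting. The deposited values are whole-number counts for each gene, in a joint table and in 8 per-sample files that hold the same values. GENCODE M21 matched 55240 of the 55421 gene IDs and gave coordinates and exonic lengths free of other genes (at least 200 bases for all 76 genes).

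Counts were tested as deposited with edgeR 4.0.16 (R 4.3.3): filterByExpr (minimum count 10, minimum total 15), TMM scaling, quasi-likelihood test, Benjamini-Hochberg over all genes tested, threshold 0.05. SE is the log2 fold change divided by the square root of F. CPM used TMM-scaled library sizes. Expected background was the receptor genes' counts per kilobase times a gene's free length. The tests across genes were first run on simulated counts built from a shared mean profile. Apart from changes put into a set of genes, the expected counts of those libraries differed by size alone. That run therefore could not test the effect of unequal background or mitochondrial shares. limma 3.58.1 and DESeq2 1.42.0 served as alternatives, beside other scalings, filters, background rules and left-out libraries. Genes named are those called, those above background in all libraries of a group, a fixed set of 10 members, further members above background, and from each helper list the 3 lowest p-values and fixed genes. The members and lists were chosen with earlier results of these data known. No statement here covers normal oxygen.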

Additional observations from a re-analysis of the deposited data

Results flagged for a closer look

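Of 76 sets of 4 samples, 1 gene in 1 group each, 7 had a sample outside the spread of the other 3 by Dixon's criterion, which chance meets in about 1 of 20 sets. In 3 of the 7, Cyp3a57, Cyp11b2 and Cyp11b1 in Hypoxia+Nitrate, the other 3 samples were at 0, where any count meets the criterion and that rate does not apply. Most of these values rest on few counts. Cyp3a57 had 0.142 CPM in Hypoxia+Nitrate 1 and 0 in the other 3 Hypoxia+Nitrate samples. Outside families 1 to 4, Cyp11b2 had 0.284 CPM in Hypoxia+Nitrate 2 and 0 in the other 3, and in Hypoxia 4 it had 2.95 CPM against 1.96 CPM in the next sample. Cyp11b1 had 0.682 CPM in Hypoxia+Nitrate 2 and 0 in the other 3, and in Hypoxia 3 it had 5.53 CPM against 4.16 CPM in the next sample. Nr1i2, the PXR gene, had 9.89 CPM in Hypoxia 2 against 6.06 CPM in the next Hypoxia sample. The hepatocyte marker Alb had 121 CPM in Hypoxia 1 against 37.6 CPM in the next Hypoxia sample, and Hypoxia 1 was also the Hypoxia sample with the most Cyp2e1, at 17.2 CPM; a part of liver RNA in it was not tested.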

How the results depend on the processing

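The test gave 8 higher and 7 lower P450 genes. Scaling changed the split: upper-quartile factors gave 5 higher and 9 lower, RLE size factors 6 and 10, and library size alone 0 and 1 (4 and 8 at an unadjusted p under 0.05). Over all genes these scalings called 8.03% and 15.3%, 9.14% and 17.0%, and 0.686% and 4.39%. A fit of nuclear protein-coding genes alone gave 6 and 13 (8.0% and 17.3%, against 15.1% and 14.4% of all genes in that fit). It changed the genes tested, the filter and the adjustment as well as the scaling. All genes tested had a median of -0.58 under TMM, and the other scalings put it at -0.87 (RLE), -0.94 (upper quartile) and -1.07 (library size); under each of these the 8 and the 7 kept their signs. DESeq2 gave 9 and 25 and limma-voom with quality weights 14 and 32, each including the 8 and the 7; all genes were called at 13.1% and 28.3% by DESeq2 and at 15.8% and 42.6% by limma-voom. Leaving out 1 library gave 0 to 13 higher and 0 to 30 lower: the counts were 13 and 30 without Hypoxia+Nitrate 2 (17.1% and 39.5% of the 76, against 14.3% and 39.5% of all genes), 13 and 8 without Hypoxia+Nitrate 3 (17.1% and 10.5% of the 76, against 13.1% and 22.0% of all genes), 0 and 0 without Hypoxia 1, 4 and 3 without Hypoxia 2, and 1 and 1 without Hypoxia 3 or without Hypoxia 4. Over all genes, leaving out Hypoxia 1, 2, 3 and 4 in turn gave 1.95%, 7.06%, 4.16% and 4.23% higher. It gave 3.61%, 8.46%, 6.99% and 7.27% lower. Without Hypoxia+Nitrate 1 and 4 the test gave 5 higher and 9 lower, and without Hypoxia 1 and 2 it gave 0 and 0 (8 and 6 at an unadjusted p under 0.05). Over all genes these fits called 10.1% and 17.6%, and 1.51% and 8.74%. With the background share as a covariate 0 and 0 were called (4 and 1 unadjusted), and after background subtraction 0 higher (1 unadjusted) and 7 lower. Over all genes the covariate fit called 0%, and the fit after subtraction 4.16% higher and 9.23% lower. The causes of these changes were not tested.

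Signs turned for genes as follows. With the background share as a covariate, log2 fold changes were 0.93 for Cyp1b1, -0.40 for Cyp2d26, -1.99 for Cyp2j6, -0.91 for Cyp2s1, -0.89 for Cyp3a13, -3.09 for Cyp4b1, -0.73 for Cyp4f14, -0.39 for Cyp4v3, -0.44 for Cyb5a, -2.63 for Nr1i2, -0.60 for Por, -0.69 for Ppara and -1.59 for Vdr. After background subtraction they were 0.87 for Cyp1b1, -0.49 for Cyp2f2, -0.20 for Alb and -0.19 for Ppara. Without Hypoxia+Nitrate 1 and 4 they were 0.46 for Cyp1b1, -0.29 for Cyp2s1, -0.27 for Cyp4b1 and -0.23 for Nr1i2, and with library size alone -0.084 for Cyp2s1 and -0.19 for Ppara. Cyp1b1 was at 0.051 with no filter and at -0.47 to 0.13 without single libraries.

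Whether the replicate numbers mark pairs could not be decided from the values. Correlations of same-numbered samples' deviations were 0.05, -0.18, 0.18 and -0.05, and those of different-numbered samples ran between -0.16 and 0.17. With the replicate block 1 gene was called higher (Cyp3a11, edgeR adjusted p = 0.0474) and 0 lower, with 8 and 17 at an unadjusted p under 0.05. Over all genes this fit called 6.14% and 7.38%.

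The genes above background in every library of a group were 2 in Hypoxia+Nitrate and 0 in Hypoxia. With the 95th percentile they were 12 and 2, and with 3 of 4 libraries 6 and 3. Leaving out 1 library gave 2 to 6 in Hypoxia+Nitrate, 6 without sample 3, and 0 to 2 in Hypoxia. Depth limits the lowest genes: below 10 counts a gene could not be called above background.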
